A study of Mus musculus with 4 samples.

Results

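The transcription factors that set up and hold the macrophage lineage were measured in peritoneal macrophages, the phagocytes of the abdominal cavity, with and without lipopolysaccharide (LPS), the endotoxin of Gram-negative bacteria that Toll-like receptor 4 senses. The group consisted of 9 genes: *Spi1*, *Cebpa*, *Cebpb*, *Cebpd*, *Maf*, *Maff*, *Runx1*, *Mef2c* and *Bhlhe40*. Its members were found by gene symbol among all probes of the array, which gave 11 of 26423 probes and 9 of 19938 named genes. *Runx1* and *Mef2c* had 2 probes each and the other genes 1, and *Spi1* was listed under its older symbol Sfpi1. All 11 probes were above background (detection p under 0.05) on all 4 arrays, and the highest detection p was 0.0289, for *Cebpd* in PBS replicate 1.

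PU.1, encoded by *Spi1*, is the pioneer factor of myeloid cells: it opens enhancers to which C/EBP, AP-1, RUNX1 and MAF proteins then bind. C/EBPα is the family member of myeloid differentiation and of resting cells, whereas C/EBPβ and C/EBPδ are known as acute phase factors that drive cytokine genes after Toll-like receptor signalling. MAF proteins come in a large form with an activation domain, such as c-MAF, which restrains macrophage self-renewal, and in a small form without one, such as MAFF and MAFK, which pair with NRF2 or BACH proteins.

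The macrophages came from C57BL/6 mice that the methods describe as wild-type males, and were kept in culture with PBS or with 100 ng/ml LPS for 6 h, with 2 samples in each group. One-colour Mouse OneArray Plus microarrays were used, with total RNA of 1 sample on each. The labels call the samples biological replicates 1 and 2 and do not tell which mice or cultures they came from, and all p-values here reflect no more than the spread among these 4 samples. The study compared the groups to follow let-7 target genes, and its labels set no question about lineage factors.

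The median signal ranged from 683 to 1054, and the dimmest array was LPS replicate 1. After quantile normalization, which gives every array the same distribution of signals, replicates correlated at 0.983 (PBS) and 0.972 (LPS) across genes. Of 11 measured macrophage markers, 10 to 11 were above background on each array, with a summed signal of 920196 to 1152940. Markers of other cells were also present in part. Above background on each array were 3 of 6 B cell genes (*Cd79a*, *Cd79b* and *Pax5*, not *Ms4a1*) and 3 of 6 T or NK cell genes (*Cd3e*, *Cd3g* and *Cd8a*, not *Cd3d*). So were 3 of 5 mast cell genes, 2 to 3 of 6 neutrophil genes (*Mpo* on all arrays, not *S100a8*), 2 of 3 eosinophil genes and 1 of 5 dendritic cell genes. Summed signals were 4385 to 8037.63 with PBS and 5170.25 to 5821.88 with LPS for the B cell list, 7560.25 to 8055 and 7232 to 7306.13 for T or NK cells, 12511 to 12560.8 and 15223.9 to 17155.9 for mast cells, 3623.25 to 3860.88 and 4695.37 to 5751.25 for neutrophils, 1552 to 2155.62 and 2499.75 to 2790.13 for eosinophils, and 2551.75 to 3256.37 and 3509.13 to 4052.25 for dendritic cells. No gene of these lists or of the mesothelial and fibroblast list passed the test. The mesothelial and fibroblast list was present, with 5 to 6 of 7 genes above background, and had a summed signal of 163255 and 230896 with PBS and of 65523.8 and 238494 with LPS. LPS replicate 1 was the lowest for this list, and the part of all these lists in the results was not tested.

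In the comparison of LPS with PBS (limma, Benjamini-Hochberg adjustment over all genes, threshold 0.05), *Cebpb* rose and *Cebpa* and *Bhlhe40* fell. These were 1 higher and 2 lower of the 9 lineage factors, beside 3.22% of all genes higher and 2.32% lower. The other 6 did not pass. Both LPS arrays lay above both PBS arrays for 4 of the 9 genes and below them for 4, a pattern that 59.7% of all genes showed in one direction or the other. The median log2 fold change was -0.07 over the 9 genes and 0.04 over all genes. With every probe as its own row, 1 of the 11 probes was higher and 2 were lower, beside 4.35% of all probes past the threshold in either direction. With samples of bulk RNA, fewer cells that express a gene and less RNA of it per cell cannot be told apart.

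**Figure D1:**
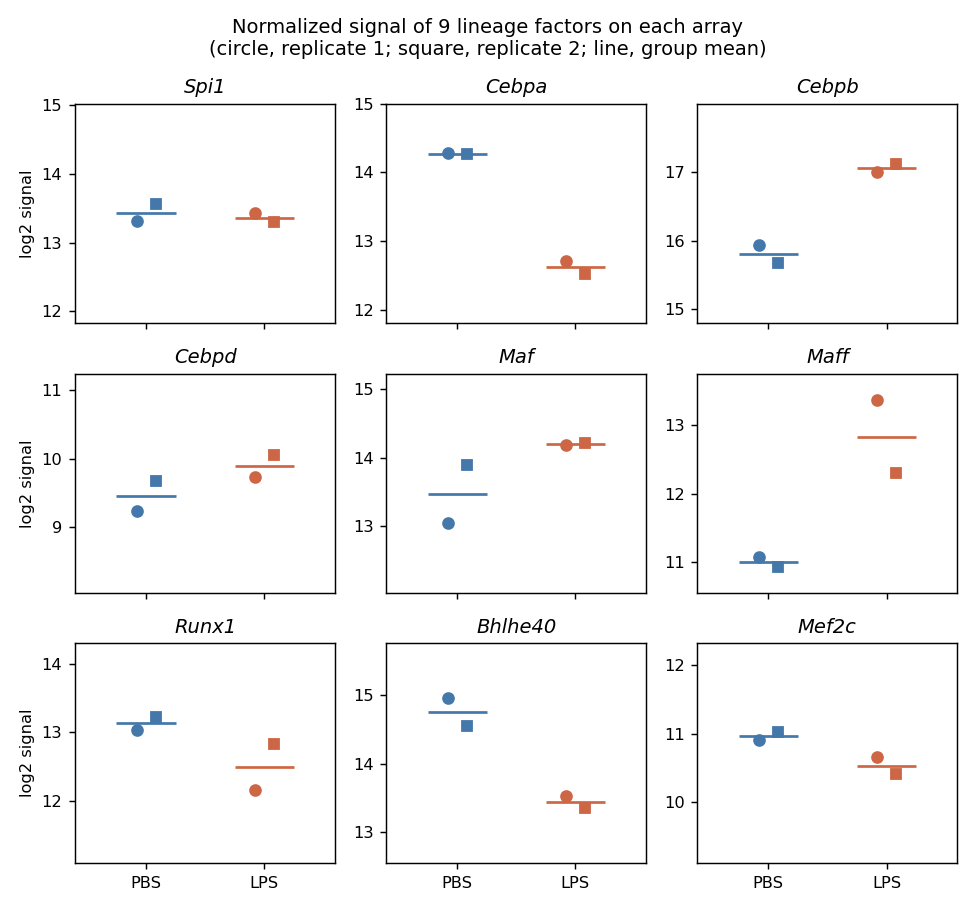
Normalized log2 signal (vertical axis, 3.2 log2 units high in every panel) of each of the 9 genes on the PBS and LPS arrays, with replicate 1 as a circle, replicate 2 as a square and the group mean as a line. The groups lie clearly apart for *Cebpa*, *Cebpb* and *Bhlhe40*, cross for *Spi1*, and for *Maff* the LPS arrays lie far from each other at 13.37 and 12.30.

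*Spi1* showed no change that the test could detect. On the log2 scale its normalized signal stood at 13.31 and 13.56 in the PBS samples, against 13.44 and 13.29 in the LPS samples. The groups overlapped, with PBS replicate 2 the highest and LPS replicate 2 the lowest. The log2 fold change was -0.07 (95% confidence interval -0.62 to 0.49, n = 2 per group, limma adjusted p = 0.859), an interval that holds changes from 1.54-fold lower to 1.40-fold higher. In absolute size, 91.3% of all genes changed by more. The sign depends on the scaling, as it turned to 0.065 with scaling to the 75th percentile and to 0.033 with cyclic loess.

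The C/EBP genes went different ways. *Cebpa* had a normalized log2 signal of 14.28 and 14.27 with PBS and of 12.71 and 12.53 with LPS. Both LPS arrays were far below the PBS arrays, which were nearly equal. The gene fell 3.15-fold (log2 fold change -1.65, SE 0.21, 95% confidence interval of the fall 2.18 to 4.54, limma adjusted p = 0.0208). It ranked at place 490 among 19938 genes ordered from the largest fall. The direction held in all 16 other settings, at -1.89 to -1.54. The call was lost when PBS replicate 1 (limma adjusted p = 0.145), PBS replicate 2 (0.174) or LPS replicate 1 (0.0629) was left out, but not without LPS replicate 2 (0.0498). It was also lost with scaling to the 75th percentile (0.0605), the second deposited table (0.0572) and no scaling (0.0612).

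*Cebpb*, whose product drives *Il6* and other acute phase genes, had signals of 15.93 and 15.68 with PBS and of 17.00 and 17.12 with LPS on the log2 scale. Both LPS arrays were above both PBS arrays by more than either pair differed within itself. The gene rose 2.39-fold (log2 fold change 1.26, SE 0.22, 95% confidence interval 1.63 to 3.51, limma adjusted p = 0.0423). In the other settings its log2 fold change was 1.13 to 1.66, always a rise. Leaving out any single array ended the call, with limma adjusted p = 0.169 and 0.290 without PBS replicates 1 and 2 and 0.104 and 0.0889 without LPS replicates 1 and 2. It also ended with scaling to the 75th percentile (0.0718), the second deposited table (0.0851) and no scaling (0.165).

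*Cebpd*, measured close to background, had log2 signals of 9.23 and 9.67 with PBS and of 9.74 and 10.05 with LPS. LPS replicate 1 was barely above PBS replicate 2. The log2 fold change was 0.44 (95% confidence interval -0.23 to 1.10, limma adjusted p = 0.340), an interval that holds no change as well as a rise of up to 2.15-fold.

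A ratio of 2 genes on the same array does not depend on how arrays are scaled to each other by a constant, and its change, though not its size, can be read across arrays. The raw signal of *Cebpb* over that of *Cebpa*, before normalization, stood at 3.10 and 2.44 in the PBS samples, against 25.0 and 25.4 in the LPS samples. The ratio of raw signals was thus 9.17 times as high with LPS, and nearly equal on the LPS arrays even though these differed most in brightness. This change need not equal that of the normalized signals above, since quantile normalization does not scale an array by a constant. The ratio of *Cebpd* to *Cebpa* was 4.12 times and that of *Cebpb* to *Cebpd* 2.23 times as high with LPS. *Cebpb* over *Cebpd* stood at 114 and 49.3 with PBS and at 210 and 133 with LPS, so that the groups lay close to each other. Both ratios rest on *Cebpd*, which was measured close to background, and the size of their changes is uncertain. In the 4 family pairs compared, *Maff* over *Maf* included, both LPS arrays were above both PBS arrays. The share of all gene pairs with this pattern was not computed. The ratios over *Cebpa* largely follow from the changes of the single genes above, and the C/EBP ratios share genes and are not independent. *Maff* over *Maf* stood at 0.245 and 0.147 with PBS and at 0.532 and 0.264 with LPS, so that these groups barely separated. An exact permutation test of 2 against 2 samples cannot go below a two-sided p = 0.333.

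The promoters of the 2 C/EBP genes that passed the test are shown because these genes moved in opposite directions. Each window holds 300 bases, 250 before the RefSeq start site and 50 from it on (GRCm38.p6, plus strand in both), at chr7:35119043-35119342 for *Cebpa* and chr2:167688665-167688964 for *Cebpb*, and capitals mark TATAAA.
Cebpa: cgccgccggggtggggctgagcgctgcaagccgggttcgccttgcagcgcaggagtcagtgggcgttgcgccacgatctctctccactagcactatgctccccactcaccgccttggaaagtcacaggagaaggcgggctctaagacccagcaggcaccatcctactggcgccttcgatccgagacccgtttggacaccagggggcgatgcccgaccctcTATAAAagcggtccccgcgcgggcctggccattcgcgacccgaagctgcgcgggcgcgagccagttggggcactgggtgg
Cebpb: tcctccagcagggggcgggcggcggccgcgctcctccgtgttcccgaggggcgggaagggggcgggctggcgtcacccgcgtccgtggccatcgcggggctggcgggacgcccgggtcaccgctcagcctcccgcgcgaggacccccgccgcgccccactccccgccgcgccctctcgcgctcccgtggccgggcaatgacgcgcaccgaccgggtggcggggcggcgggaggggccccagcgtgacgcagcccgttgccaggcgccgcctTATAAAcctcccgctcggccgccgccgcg
The windows have a GC content of 67.3% (*Cebpa*) and 80.7% (*Cebpb*). TATAAA starts 30 bases before the start site in *Cebpa* and at position 21 after it in *Cebpb*, and it occurred on either strand in 13.6% of the 32851 RefSeq windows of this length. The other motifs searched on both strands were TTGCNNAA for C/EBP, TGACGTCA for CRE-binding proteins, TGANTCA for AP-1, GAGGAAGT for PU.1, TGTGGT for RUNX, CACGTG for E-box proteins, TGCTGAC for the MAF half-site and the NF-κB consensus. None of these were found in either window, and no motif contains another of the list. A looser form of the NF-κB consensus, searched first and found in 20.7% of all windows, did match the *Cebpb* window.

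Of the 9 genes, 5 had windows in the table, 10 in all. The first of 3 *Maff* windows held TTGCACAA, a match to the C/EBP motif (10.8% of all windows). The second held CACGTG (7.15%) and TGACGTCA (1.79%), and the third a match to the NF-κB consensus (8.46%) on the strand opposite to the gene. One of 2 *Runx1* windows held CACGTG once and the RUNX motif at 2 places on the strand opposite to the gene (16.8% of all windows held it). The *Mef2c* windows held TATAAA in 2 of 3, in both on the strand opposite to the gene, and a match to the AP-1 motif (7.81%) in the other. A match is a description of the letters and not a binding site.

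**Figure D2:**
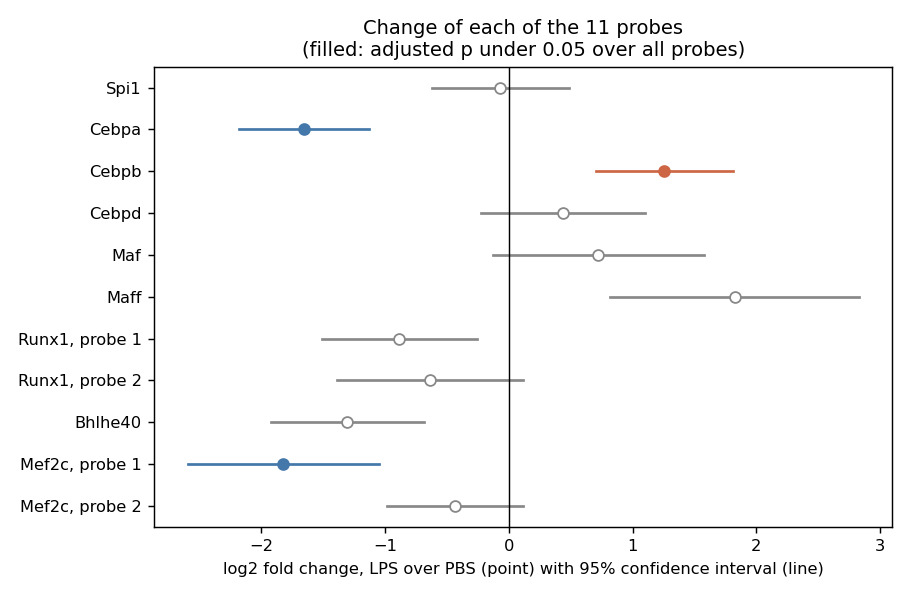
Log2 fold change (horizontal axis, LPS over PBS) of each of the 11 probes with its 95% confidence interval, filled where the adjusted p over all probes was under 0.05. *Cebpa* and probe 1 of *Mef2c* are filled to the left, *Cebpb* to the right, and *Bhlhe40*, with an adjusted p of 0.0575 over all probes, is open here although it passed in the fit over genes.

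Among the MAF genes, *Maff* had the largest fitted change of the 9 genes but did not pass the test. Its log2 signal stood at 11.08 and 10.94 in the PBS samples and reached 13.37 and 12.30 in the LPS samples. Both LPS arrays were higher, but LPS replicate 1 stood about as far above LPS replicate 2 as this array stood above PBS replicate 1. The log2 fold change was 1.82, a ratio of 3.54 (95% confidence interval 1.78 to 7.07, limma adjusted p = 0.0673), and 3.94% of all genes had a larger absolute change. Without LPS replicate 2 it passed (log2 fold change 2.37, limma adjusted p = 0.0335), and it did not in the other 15 settings.

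*Maf*, the large MAF of resident and IL-10 producing macrophages, had log2 signals of 13.04 and 13.89 with PBS and of 14.18 and 14.21 with LPS. PBS replicate 1 was low and the other 3 arrays lay close together. The log2 fold change was 0.73 (95% confidence interval -0.12 to 1.57, limma adjusted p = 0.242), which became 0.30 when PBS replicate 1 was left out and 1.18 when PBS replicate 2 was.

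The other MAF proteins and their partners of the CNC and BACH families formed a list of 10 genes, of which 9 were measured, 1 rose, 1 fell and 7 did not pass, with a median log2 fold change of 0.03. *Mafk*, a small MAF like *Maff*, rose 3.83-fold, from log2 signals of 12.63 and 12.16 in the PBS samples to 14.33 and 14.32 in the LPS samples (limma adjusted p = 0.0216). *Nfe2l2*, which encodes NRF2, had a log2 fold change of 0.50 and *Nfe2l1* of 0.78, and neither passed (limma adjusted p = 0.210 and 0.193). The call for *Mafk* was lost without any single array (limma adjusted p = 0.0565 to 0.163) and with the second deposited table (0.0517).

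*Runx1*, which encodes a factor of blood stem cell emergence that also binds myeloid enhancers beside PU.1, was represented by 2 probes. Probe 1 had log2 signals of 12.46 and 12.04 with PBS and of 11.46 and 11.28 with LPS, a log2 fold change of -0.88 (SE 0.24, limma adjusted p over all probes = 0.125). Probe 2, the brighter one that stood for the gene, had 13.03 and 13.23 with PBS and 12.16 and 12.82 with LPS, a log2 fold change of -0.63 (SE 0.29, limma adjusted p over all genes = 0.245). On both probes the LPS arrays lay below the PBS arrays, and on neither did the difference pass the test. Of 4 measured RUNX and CBF genes none passed, with a median of -0.55. *Cbfb*, the shared partner of RUNX proteins, had a log2 fold change of -0.70 (limma adjusted p = 0.241) and *Runx2* of 0.32 (0.510).

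For *Mef2c*, whose product is a MADS box factor of myeloid and lymphoid cells that recruits class IIa histone deacetylases, the 2 probes disagreed in size. Probe 1 had log2 signals of 11.83 and 11.21 with PBS and of 9.89 and 9.51 with LPS. Both LPS arrays were far lower, and the probe fell 3.53-fold (95% confidence interval 2.07 to 6.02, limma adjusted p over all probes = 0.0454). Its LPS signals are close to background (detection p of 0.0147 and 0.0102), so that the size of this fall is uncertain. Probe 2, which stood for the gene by its higher mean of log2 signals, had 10.91 and 11.03 with PBS and 10.66 and 10.41 with LPS, a log2 fold change of -0.43 (95% confidence interval -0.98 to 0.11 in the fit over all probes, limma adjusted p over all genes = 0.273). The direction was the same on both. By the mean of unlogged signals probe 1 would be the brighter, so the choice of scale decides which of them stands for *Mef2c*. The sources used here do not give the place of the probes on the transcripts, and which of them follows the gene better was not tested. The call for probe 1 was lost without any single array (limma adjusted p = 0.107 to 0.209), and the mean of both probes gave -1.13 (0.0595).

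Of the other MEF2 genes and class IIa histone deacetylases, 6 of 7 were measured, 1 fell and 5 did not pass, with a median log2 fold change of -0.70. *Hdac5* fell 6.16-fold, from 12.43 and 12.53 with PBS to 9.74 and 9.98 with LPS on the log2 scale (limma adjusted p = 0.00682). Its LPS signals, though above background, are close to it, so that the size of this fall is uncertain. *Hdac4* had a log2 fold change of -1.07 (limma adjusted p = 0.0558) and *Hdac7* of -0.90 (0.2497). The call for *Hdac5* was lost without PBS replicate 1 (limma adjusted p = 0.0689) or 2 (0.0942).

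*Bhlhe40* encodes a helix-loop-helix repressor that in mouse macrophages supports proliferation and represses *Il10*. Its log2 signal stood at 14.95 and 14.54 in the PBS samples, against 13.53 and 13.35 in the LPS samples. Both LPS arrays were lower by more than the PBS arrays differed. The gene fell 2.47-fold (log2 fold change -1.30, SE 0.24, 95% confidence interval of the fall 1.61 to 3.79), at the very edge of the threshold, with a limma adjusted p = 0.049996 over genes and 0.0575 over probes. Without a single array its limma adjusted p was 0.106 to 0.237, and it was 0.165 with scaling to the 75th percentile, 0.0736 with cyclic loess, 0.145 with the second deposited table and 0.136 with no scaling.

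**Figure D3:**
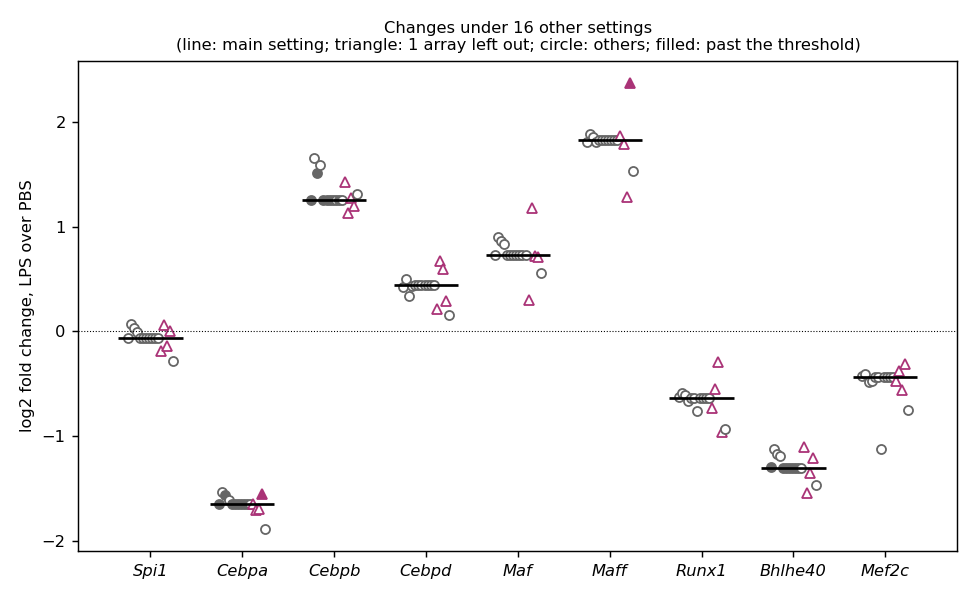
Log2 fold change (vertical axis, LPS over PBS) of the 9 genes under 16 other settings, as triangles where 1 array was left out and circles otherwise, with the value of the main setting as a line; filled points passed a threshold of 0.05, which is on unadjusted p-values for 1 of the circles. All settings keep the sign of 8 genes, *Spi1* lies around 0, and *Cebpa* passed in 9, *Cebpb* in 7, *Bhlhe40* in 7 and *Maff* in 1 of the 16.

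The genes with the most similar profiles were found as those with the smallest Euclidean distance over the 4 arrays of the log2 signal minus the PBS mean, among 11903 genes above background on all arrays. For *Cebpa* these were *Erp29* (distance 0.11, log2 fold change -1.64) and *P2ry1* (0.12, -1.67). Among the 2 nearest to *Cebpb* was *Ktn1* (0.09, 1.24), and among those to *Bhlhe40* was *Jun* (0.08, -1.34). With 4 arrays, likeness of this kind rests on little more than a similar fold change.

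The relatives, partners and antagonists of PU.1 were a list of 9 genes with 1 lower and 8 not past the test, with a median log2 fold change of 0.57. *Jun*, the AP-1 subunit that cooperates with PU.1, fell 2.53-fold, from 14.80 and 14.41 with PBS to 13.40 and 13.13 with LPS on the log2 scale (limma adjusted p = 0.0494). *Irf8*, the DNA-binding partner of PU.1 in macrophages, had log2 signals of 13.43 and 13.01 with PBS and of 14.44 and 14.13 with LPS, a log2 fold change of 1.06 (limma adjusted p = 0.0860). *Gfi1*, a repressor that opposes PU.1, had 0.33 (0.359). None of the 6 C/EBP relatives and regulators passed, with a median of -0.18, and among them *Ddit3*, which encodes the inhibitory partner CHOP, had -0.27 (limma adjusted p = 0.569) and *Trib2*, whose product promotes the breakdown of C/EBPα, had -1.05 (0.381). The call for *Jun* was lost without any single array (log2 fold change -1.58 to -1.15) and with scaling to the 75th percentile (limma adjusted p = 0.157). *Jun* passed in 7 of the 16 other settings, 1 of which is the methods' t-test on unadjusted p-values. It did not pass in the fit over all probes (limma adjusted p = 0.0566).

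Genes known to be driven by C/EBP proteins were the list with the most calls. Of 13 measured genes of 14, 8 rose, 5 did not pass and none fell, and the median log2 fold change was 4.58 beside 0.04 over all genes. Over all genes, 3.22% were higher and 2.32% lower, shares to set beside this list and the others. The lists were chosen with earlier results of these data known, so these counts are no test of C/EBP activity, which was not tested. *Il6* had log2 signals of 8.08 and 9.13 with PBS and of 16.82 and 17.03 with LPS (limma adjusted p = 0.00238). It was above background on 1 of the 2 PBS arrays, so that the size of its rise is not given. *Nos2*, the inducible nitric oxide synthase, was above background on no PBS array and at least 127-fold higher with LPS, which is the LPS mean over the lowest signal above background (limma adjusted p = 0.0114). Its LPS arrays differed widely, at 14.79 and 17.19 on the log2 scale, and the bound was 55.2-fold from LPS replicate 1 and 291-fold from LPS replicate 2 alone. *Ptgs2*, the cyclooxygenase of prostaglandin synthesis, was 161-fold higher (limma adjusted p = 0.00885), with LPS arrays at 15.80 and 17.80 and a log2 fold change of 6.34 to 8.19 with 1 array left out. *Lcn2*, a siderophore-binding protein, was 64.3-fold higher (0.00576). The PBS arrays stood at 9.26 and 9.68 for *Ptgs2* and at 10.11 and 9.04 for *Lcn2* on the log2 scale. These signals are close to background, so that the size of both rises is uncertain.

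Members of that list that did not pass included *Arg1*, the arginase that competes with nitric oxide synthase for its substrate, with a log2 fold change of -1.44 (limma adjusted p = 0.0523), and *C3* of complement with 1.73 (0.0521). Of the named genes of the list, *Il6* kept its call without any single array, *Lcn2* lost it without PBS replicate 2 (limma adjusted p = 0.0513), and *Nos2* and *Ptgs2* lost it without PBS replicate 1 (0.0740 and 0.0733) or 2 (0.0986 and 0.0827).

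Of 18 myeloid genes known to be bound by PU.1, 4 rose, 14 did not pass and none fell, with a median log2 fold change of 0.18. Those that rose were *Il1b* (118-fold, limma adjusted p = 0.00167), the Fcγ receptor gene *Fcgr1* (5.02-fold, 0.0348), the LPS co-receptor gene *Cd14* (3.999-fold, 0.0319) and the G-CSF receptor gene *Csf3r* (3.197-fold, 0.0312), which is also one of the C/EBP-driven genes. *Tyrobp*, an adaptor of activating receptors, had log2 signals of 17.84 and 17.82 with PBS and of 17.31 and 16.83 with LPS (log2 fold change -0.76, limma adjusted p = 0.147), and *Fcgr3* had a log2 fold change of -1.07 (0.0598). *Il1b* kept its call without any single array, whereas *Fcgr1*, *Cd14* and *Csf3r* lost it each time (limma adjusted p = 0.0606 to 0.209) and with scaling to the 75th percentile (0.0598, 0.0685 and 0.0521).

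Of 11 genes reported to depend on MAF in macrophages, 1 passed, downward, with a median of -0.66. This was the scavenger receptor gene *Cd163*, with log2 signals of 8.98 and 8.50 with PBS and of 7.09 and 6.93 with LPS, not above background on any array, so that no fold is given for it. The complement gene *C1qb* had a log2 fold change of -0.55 (limma adjusted p = 0.184) and the selenium carrier gene *Selenop* of -1.16 (0.0855). Of 7 targets of NRF2 and small MAF proteins 1 rose, the cystine transporter gene *Slc7a11*, which was 6.07-fold higher (limma adjusted p = 0.0239). *Hmox1* and *Txnrd1*, each at 0.39 on the log2 scale, were not past the test (limma adjusted p = 0.329 and 0.395). Of 4 MEF2 targets 1, *Jun*, fell, and *Nr4a1* (0.72, limma adjusted p = 0.122) and *Klf2* (-0.84, 0.123) did not pass. *Slc7a11* lost its call without PBS replicate 1 (limma adjusted p = 0.104), PBS replicate 2 (0.168) or LPS replicate 2 (0.0506), and *Cd163* without any single array (0.0760 to 0.163).

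**Figure D4:**
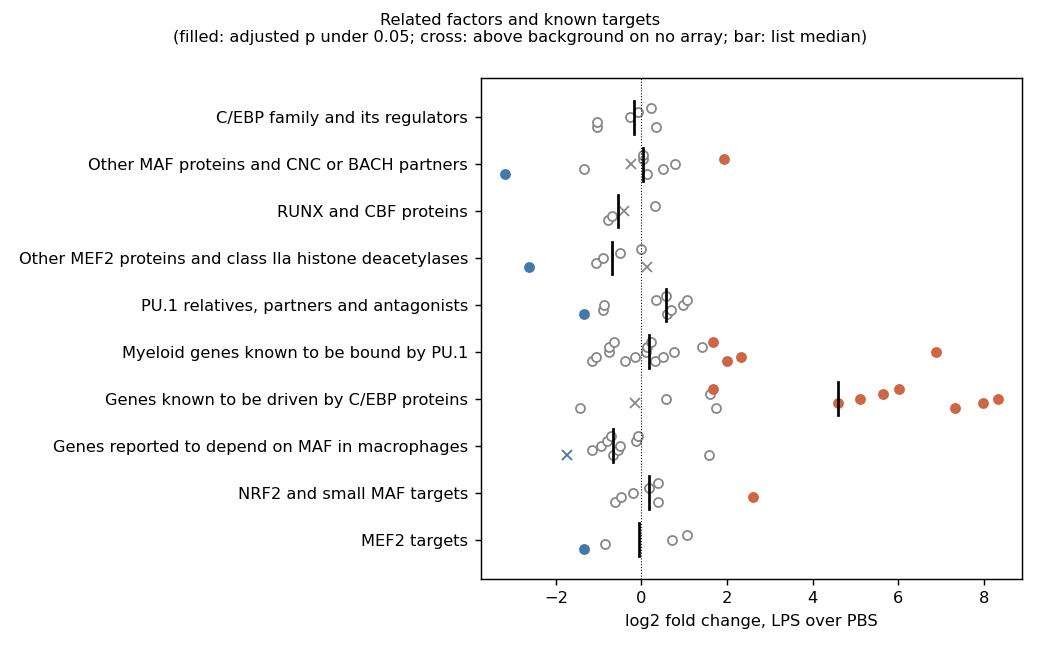
Log2 fold change (horizontal axis, LPS over PBS) of the measured genes of 10 lists of related factors and known targets, filled where they passed the test, as a cross where above background on no array (blue for *Cd163*, which passed), with the list median as a bar. Genes driven by C/EBP proteins have 8 filled points to the right. The farthest of these is *Il6*, above background on 1 of the 2 PBS arrays, so that its place is uncertain. *Hdac5*, close to background with LPS, lies far on the left at -2.62.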

How the data were processed

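The authors deposited a table of raw signal intensity per probe and array, taken as background-subtracted because 60 values lie at or below 0, all on LPS replicate 1. For every probe the authors also deposited detection p-values, which served only to tell what was above background, and a spot flag, treated here as a score of 0 or not. A second intensity table the authors deposited holds the same signals times a constant per array (0.869 and 0.972 for PBS, 1.29 and 0.959 for LPS) and served as an alternative. The sources used here do not give how the images were scanned and the background set.

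Symbols were updated through RefSeq synonyms. Of 26423 probes, 22815 had a single symbol, 246 several and 3362 none. Where a gene had several probes, the one brightest on average stood for it. Signals were quantile-normalized, converted to log2 and compared with limma 3.58.1 in R 4.3.3 over 19938 genes and again over all probes, with no filter on dim probes. The script was tested on simulated data. Each gene had 2 residual degrees of freedom beside 3.11 from the prior, and precision is limited by the number of arrays.

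The genes and the 10 gene lists were chosen with earlier results of these data known. By rule, the text names every probe of the 9 genes, from each list up to 4 genes past the test with the largest change and up to 2 that did not pass with the highest mean signal, and the 2 genes nearest in profile to each of the 9 that passed. Named marker genes of other cells, above background or not, were chosen after their values were seen. Some genes counted in the lists or chosen by this rule are not reported here. Promoter windows are those of RefSeq (GRCm38.p6), and the letters for NF-κB were made stricter after a first search. Alternatives covered background correction, scaling, filters, the rule for several probes, the variance model, the replicate block, the t-test that the methods name and each array left out; the setting with no scaling was added after seeing the data.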

Additional observations from a re-analysis of the deposited data

How the results depend on the processing

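Past the test were 1104 genes of all, 17 listed genes, 3 of the 9 lineage factors and 3 of their 11 probes. With scaling to the 75th percentile these were 529, 14, 0 and 0, with the second deposited values they were 438, 11, 0 and 0, and with no scaling, a setting added after seeing the data that moved the median of all genes to -0.35, 432, 11, 0 and 0. The share of higher genes among the calls was 58.2%, and it was 75.2% with the 75th percentile, 74.7% with the second table, 67.3% with cyclic loess, 93.4% and 97.5% without PBS replicates 1 and 2, and 74.2% and 39.3% without LPS replicates 1 and 2, so that most calls were falls in the last of these. The methods' t-test gave 3719 genes, 32 listed genes, 3 lineage factors and 4 probes at an unadjusted p under 0.05 and 0, 0, 0 and 0 after Benjamini-Hochberg adjustment. Leaving out 1 array gave 40 to 1056 genes, 3 to 11 listed genes, 0 to 2 lineage factors and 0 to 1 probes; the lone sample of a group is then assumed to vary like the other group. The cause of these differences was not tested, beyond the smaller number of samples.

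Signs turned for *Spi1*, to 0.065 with the 75th percentile, 0.033 with cyclic loess and -0.19 to 0.058 with 1 array left out (above 0 without PBS replicate 2 or LPS replicate 2), for *Ddit3*, at -0.56 to 0.034 with 1 array left out (above 0 without LPS replicate 2), and for *Gfi1*, to -0.015 with no scaling. Of the 144 values of the lineage factors under other settings, 114 kept direction and side of the threshold, 25 lost the call, 1 gained it and 4 turned sign.

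Replicate numbers give 2 pairs, whose deviations from the group means correlated at 0.239; the labels do not say what a number shares. With a replicate block, 1165 genes, 18 listed genes, 2 lineage factors and 2 probes passed, and *Cebpb* no longer did (limma adjusted p = 0.0555). With 2 arrays per group, a change the size of that of *Cebpd* could not be told from none.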
